A study of Homo sapiens with 10 samples.

Results

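Zinc transporters, metallothioneins and the zinc-sensing transcription factor MTF1 were described in 5 human prostate cancer cell lines. The 35 members were chosen by name from the 60642 genes of the deposited expression table. They are the 14 importers of the SLC39A (ZIP) family, the 10 exporters of the SLC30A (ZnT) family, 10 metallothionein genes of the MT1, MT2 and MT3 types, and MTF1. The mitochondrial genes, whose symbols also begin with MT, are not among them. LNCaP, DUCAP, VCAP, DU145 and PC3 are established lines grown from prostate cancers. Each line was profiled untreated in 2 biological repeats, 10 samples in all, by bulk RNA-seq of polyA-enriched, strand-specific libraries. The cells grew exponentially in phenol red-free RPMI with fetal bovine serum. The methods of the study give 5% serum, whereas the labels give 5 to 10% without stating the share for each sample. DUCAP and VCAP are known to come from different metastases of the same patient. A difference between lines is a difference between these cultured lines. The study sets LNCaP, DUCAP and VCAP, called the trio here, against DU145 and PC3.

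Zinc cannot cross membranes unaided. ZIP proteins carry it into the cytosol, from outside the cell or out of organelles, and ZnT proteins carry it the other way, out of the cell or into organelles and vesicles. Metallothioneins are small cysteine-rich proteins that bind zinc and other metals, and MTF1 is a transcription factor that senses free zinc, binds metal response elements in DNA and switches on metallothionein genes and the exporter gene SLC30A1. Normal prostate epithelium is known for holding much more zinc than most tissues.

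Values are TPM, transcript abundances made relative to a total that is nominally equal for all samples. Levels of different genes can therefore be compared, since TPM are set per transcript length. TPM keep no depth, so the number of reads behind a value is unknown. The 37 mitochondrial genes held 12.7 to 36.0% of the TPM of a sample, with 32.1 to 36.0% in DUCAP and VCAP and 12.7 to 22.5% in the other lines, and what they hold is missing from the other genes. The epithelial genes KRT8, KRT18 and EPCAM were at 23.4 TPM or more in every sample. KLK3, which encodes prostate-specific antigen, was at 28.3 to 2625 TPM in the trio and at most 0.77 TPM in DU145 and PC3. HOXB13, another prostate gene, was at 0.02 to 0.03 TPM in DU145, at 52.1 to 201 TPM in the trio and at 328 and 502 TPM in PC3. PTPRC, PECAM1 and COL1A2, markers of leukocytes, endothelium and fibroblasts, were at most 0.43 TPM in every sample, whereas the fibroblast collagen gene COL1A1 ranged from 0.03 to 38.0 TPM and was highest in PC3. In bulk samples, fewer cells that express a gene and less of its RNA per cell cannot be told apart.

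Differences between lines were tested on log2(TPM + 1) with limma over the 17520 genes that reached 1 TPM in 2 or more samples, with adjustment over all of them, and called at an adjusted p under 0.05. Of the 35 members, 27 passed that filter. All 27 differed across the 5 lines, where 90.8% of all tested genes did, so the call says little about the members. SLC30A3, MT1A and MT1G reached 1 TPM in 1 line only and had to differ. Below, a log2 difference is the first-named group minus the second on the log2(TPM + 1) scale, with its standard error (SE), and a p-value speaks of the spread between the repeats of these lines. On this scale the change of a gene with few TPM is understated.

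Of the 3 transporter and metallothionein classes, the metallothioneins had the sum that differed most between lines. This sum, taken over the 10 genes, was 2660.0 and 2161 TPM for DU145, 1073 and 995 for PC3, 391 and 261 for VCAP, 308 and 212 for LNCaP and 75.1 and 118 for DUCAP. The sums of DU145 lay above all others, those of PC3 came next, and those of DUCAP were the lowest. VCAP and LNCaP lay between them and overlapped. The mean of DU145 was 2411 ± 353 TPM and that of DUCAP 96.7 ± 30.5 TPM (SD, n = 2 each), a metallothionein ratio of 24.9, which became 14.6 after median-ratio scaling.

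**Figure D1:**
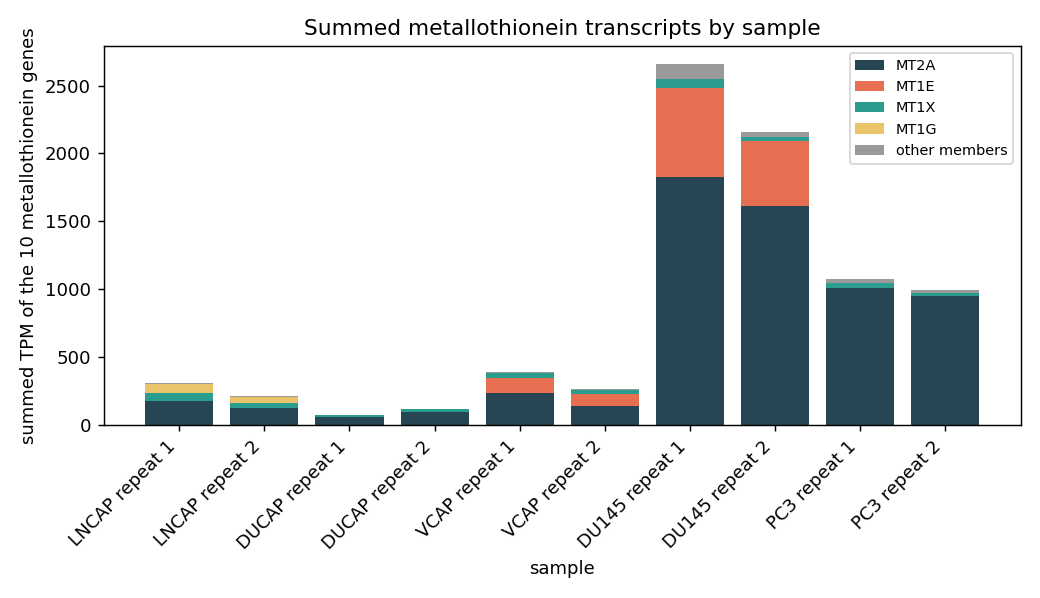
Summed TPM of the 10 metallothionein genes (vertical axis) in each of the 10 samples, stacked by gene. MT2A fills most of every bar, MT1E adds a large part in DU145 and VCAP, and the DU145 and PC3 bars, at 995 TPM or more, stand above the other 6.

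MT2A, the most abundant metallothionein gene in every sample, is expressed in most human tissues. It was at 1829.8 and 1612 TPM for DU145, 1010.3 and 946 for PC3, 232 and 138 for VCAP, 172 and 124 for LNCaP and 60.4 and 95.5 for DUCAP. The trio and the other lines did not overlap. MT2A was lower in the trio (log2 difference −3.35, SE 0.19, limma adjusted p = 1.0e-06). It made up 94.6% of the metallothionein TPM in PC3, 80.6% in DUCAP, 71.4% in DU145, 56.9% in LNCaP and 56.8% in VCAP. Among all genes of a sample, MT2A ranked 61 and 79 by TPM in the DU145 repeats, against 1301 and 880 in DUCAP. Within the trio LNCaP did not pass the test against DUCAP and VCAP (log2 difference 0.32, SE 0.25, limma adjusted p = 0.30). The calls for DUCAP below VCAP (log2 difference −1.23, SE 0.29, limma adjusted p = 0.024) and DU145 above PC3 (log2 difference 0.81, SE 0.29, limma adjusted p = 0.049) were near the threshold. The first was lost without DUCAP repeat 1 or VCAP repeat 1, at an adjusted p of 0.16 or 0.13, and also without either PC3 repeat. The second was lost without any one of the LNCaP, DU145 or PC3 repeats, with an adjusted p between 0.067 and 0.19.

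MT1E was found in some lines and not in others. It was at 651 and 479 TPM in the DU145 repeats and 115 and 91.6 in VCAP, whereas it was listed at 0 in both LNCaP and both DUCAP repeats and at 0 and 0.08 in PC3. Each side of the study's split therefore held lines with and without this transcript. MT1E made up 31.8% of the metallothionein TPM in VCAP and 23.4% in DU145. It was higher in DU145 than in PC3 (log2 difference 9.07, SE 0.19, limma adjusted p = 3.9e-08), and since PC3 had next to none, the size of that difference follows the 1 TPM that was added. VCAP and DUCAP, which differed in 18.3% of all tested genes, also differed in MT1E (limma adjusted p = 8.5e-07), with no fold given because DUCAP was listed at 0.

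MT1G stood out in LNCaP. It reached 68.8 and 41.5 TPM there, against 0 and 0.76 in DUCAP and 0.45 and 0.38 in VCAP, and it was listed at 0 in every DU145 and PC3 sample. MT1G thus passed the filter only through LNCaP, and no test is given for it. It held 21.2% of the metallothionein TPM of LNCaP. MT1A was listed at 0 in all samples but those of DU145, where it was at 44.4 and 21.9 TPM. MT1A thus passed the filter only through DU145, and no test is given for it. MT1M ranged from 6.79 to 41.6 TPM in DU145 and PC3 and was listed at 0 in the trio, so that it too entered the tests only through the side where it was high.

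MT1F and MT1X were found on both sides of the split. MT1F was at 18.5 and 16.9 TPM for PC3, 21.0 and 8.64 for DU145, 6.62 and 5.43 for LNCaP, 3.71 and 2.55 for VCAP and 0 and 0 for DUCAP. Every trio sample lay below every DU145 and PC3 sample (log2 difference −2.43, SE 0.22, limma adjusted p = 1.7e-05), and LNCaP lay above DUCAP and VCAP (log2 difference 1.79, SE 0.30, limma adjusted p = 0.00086). MT1X was at 71.1 and 31.6 TPM for DU145, 60.1 and 39.7 for LNCaP, 36.6 and 26.2 for VCAP, 34.3 and 24.1 for PC3 and 13.2 and 21.3 for DUCAP. The lowest levels were those of DUCAP, DU145 overlapped LNCaP, VCAP and PC3, and LNCaP lay above VCAP and PC3. The trio did not pass the test against DU145 and PC3 (log2 difference −0.32, SE 0.26, limma adjusted p = 0.30). LNCaP was above DUCAP and VCAP (log2 difference 1.06, SE 0.35, limma adjusted p = 0.027), a call that was lost without either LNCaP repeat, without DUCAP repeat 1, without VCAP repeat 2 and under every other scaling (adjusted p 0.051 to 0.33). MT3, first described as a brain metallothionein, ranged from 0 to 2.16 TPM. MT1B and MT1H were listed at 0 in all 10 samples.

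**Figure D2:**
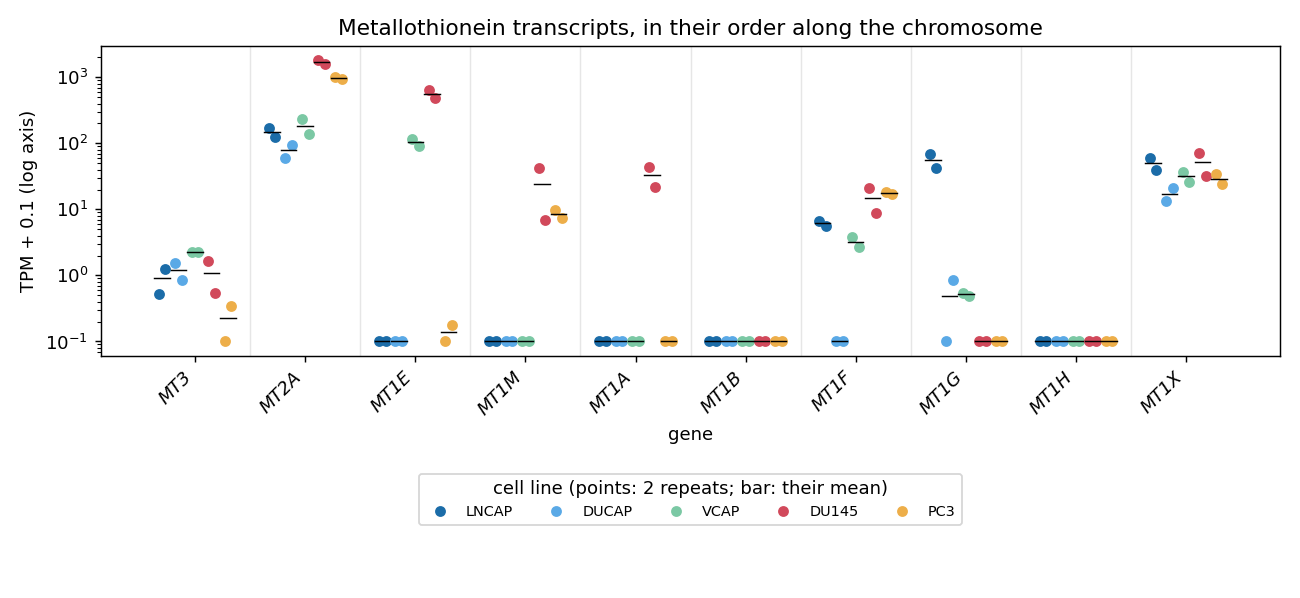
TPM of each of the 10 metallothionein genes (log axis, with 0.1 added so that 0 can be drawn) in their order along chromosome 16, with 1 point per sample coloured by line and a bar at the mean of each line's 2 repeats. MT2A and MT1X are found in every line, whereas MT1E, MT1G and MT1A sit at the bottom of the axis in several lines.

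The repeats of a line differed in these genes. In DU145, repeat 1 had the higher level for 7 of the 8 tested metallothioneins, and MT1F, MT1M and MT1X were 2-fold or more apart after 1 TPM was added, where 9.48% of all tested genes were. With 1 TPM added, which shrinks gaps between low values such as those of MT3 and SLC30A3, no other tested member differed 2-fold between the DU145 repeats. In the other lines no member did after the same addition, where 0.902% of all tested genes in DUCAP, 0.942% in LNCaP, 0.993% in PC3 and 2.12% in VCAP differed that much. VCAP repeat 1 was above repeat 2 for 5 metallothioneins and below it for 0, with the remaining 3 equal, and LNCaP repeat 1 was above for 4 and below for 1. In PC3 repeat 1 was above for 4 and below for 2. In DUCAP it was repeat 2 that was higher, for 3 against 1. Over all 27 tested members, repeat 1 was above for 18 and below for 8 in DU145, and for 4 and 19 in DUCAP. These counts were 11 and 13 in VCAP, and 12 and 12 in both LNCaP and PC3. The directions were not counted over all tested genes. No test within a line was possible with 2 repeats.

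The metallothionein genes lie side by side on chromosome 16 (GRCh38.p14), from MT3, which begins at base 56589528, to MT1X, which ends at base 56684196. Their transcripts are short and alike, which can affect how reads are divided among them. Their protein-coding transcripts were cut into all windows of 100 bases and compared with the annotated transcripts of all other genes, coding or not. Those of MT1A, MT1E, MT1F, MT1G, MT1M, MT2A and MT3 shared 0% of their windows exactly with another gene. MT1B and MT1H shared 5.61 and 1.39%, and MT1X shared 32.9% of its windows, all with a gene model that has no symbol. The levels of MT1X are therefore less certain. The sum over the 10 genes depends less on the division of reads among those 10. It is not free of it, since TPM are set per transcript length and these transcripts differ in length. Of 10 related genes and pseudogenes, 4 were listed at 0 in every sample. MT1L was at 168 and 94.3 TPM in the DU145 repeats, at 0.97 and 0.63 in VCAP and at 0 elsewhere.

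Promoter sequences are shown because MTF1 acts through metal response elements, whose core is spelled TGCACNC or TGCGCNC. The 250 bases before the RefSeq start site (GRCh38.p14) were searched for both spellings on both strands, and no matches overlapped. Windows were given for 26 members, 4 metallothioneins among them, in a total of 35 windows. Of all 35116 windows of that length in the RefSeq table, 24.8% held at least 1 match, 1.58% at least 3 and 0.0313% at least 7. Capitals mark the matches, read on either strand, and each window runs 5′ to 3′ toward the start of the gene.
MT2A, chr16:56608334-56608583, plus strand: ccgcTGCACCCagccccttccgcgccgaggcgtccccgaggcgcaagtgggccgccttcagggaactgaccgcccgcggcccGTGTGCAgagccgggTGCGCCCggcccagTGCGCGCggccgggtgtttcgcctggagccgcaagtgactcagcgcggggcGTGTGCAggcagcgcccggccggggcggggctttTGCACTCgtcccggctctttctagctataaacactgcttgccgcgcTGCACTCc
MT1X, chr16:56682220-56682469, plus strand: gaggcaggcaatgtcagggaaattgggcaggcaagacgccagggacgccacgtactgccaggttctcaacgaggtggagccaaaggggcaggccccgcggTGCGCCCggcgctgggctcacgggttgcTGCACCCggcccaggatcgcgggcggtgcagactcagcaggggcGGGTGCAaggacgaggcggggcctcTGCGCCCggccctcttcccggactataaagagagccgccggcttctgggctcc
MT1H, chr16:56669564-56669813, plus strand: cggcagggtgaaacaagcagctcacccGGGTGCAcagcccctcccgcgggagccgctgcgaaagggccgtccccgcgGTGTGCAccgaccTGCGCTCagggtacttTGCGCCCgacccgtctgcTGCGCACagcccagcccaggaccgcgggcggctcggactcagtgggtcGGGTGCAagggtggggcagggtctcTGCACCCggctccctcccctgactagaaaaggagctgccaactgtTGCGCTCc
MT1B, chr16:56651636-56651885, plus strand: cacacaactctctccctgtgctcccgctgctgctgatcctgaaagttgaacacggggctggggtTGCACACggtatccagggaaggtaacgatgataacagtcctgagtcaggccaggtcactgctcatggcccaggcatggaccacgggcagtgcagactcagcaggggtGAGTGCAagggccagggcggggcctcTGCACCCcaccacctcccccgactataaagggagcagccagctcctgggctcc
SLC30A1, chr1:211579162-211579411, minus strand: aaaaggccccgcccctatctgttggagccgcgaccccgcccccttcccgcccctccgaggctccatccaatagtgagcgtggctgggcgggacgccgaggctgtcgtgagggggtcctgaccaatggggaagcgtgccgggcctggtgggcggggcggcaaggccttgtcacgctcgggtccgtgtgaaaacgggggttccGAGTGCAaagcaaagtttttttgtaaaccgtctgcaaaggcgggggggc

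The windows of MT2A, MT1X, MT1H and MT1B held 7, 4, 8 and 3 matches. MT1H and MT1B, listed at 0 in every sample, thus held matches as MT2A did, which was among the most abundant transcripts in DU145. The window of SLC30A1 held 1 match, 49 bases before the start, and that of MTF1 held 0. Of the importers, 5 of 12 with a window had a match, in 5 of 19 windows and never more than 1 in a window. Among the exporters 5 of 9 had one, in 6 of 11 windows and with at most 3 in a window. The share of 24.8% for all windows is counted by window and not by gene. A match describes the letters of the window and does not show a site in use.

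MTF1 itself varied little. It was at 7.04 and 6.07 TPM for LNCaP, 4.85 and 6.73 for DU145, 5.50 and 5.58 for PC3, 3.81 and 4.04 for DUCAP and 3.44 and 4.19 for VCAP. The range over the 10 samples was 3.44 to 7.04 TPM, while that of the metallothionein sum was 75.1 to 2660.0 TPM. Only the RNA of MTF1 was measured, and a link between these ranges was not tested. The trio did not pass the test against DU145 and PC3 (log2 difference −0.24, SE 0.12, limma adjusted p = 0.099). LNCaP was above DUCAP and VCAP (log2 difference 0.63, SE 0.16, limma adjusted p = 0.0074), a call that was lost under the quantile (log2 difference 0.03) and median-ratio (0.08) scalings and without LNCaP repeat 1 (0.54, adjusted p = 0.073).

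Importers were expressed in every line, 11 of the 14 genes at 1 TPM or more in every sample. Their sum was 858 and 841 TPM for PC3, 748 and 748 for DU145, 617 and 602 for LNCaP, 534 and 606 for VCAP and 434 and 523 for DUCAP. PC3 was highest and DUCAP lowest on average, with an importer ratio of 1.78 that became 1.37 when the mitochondrial genes were left out of the total and 0.994 when scaled by median ratios. The remaining 3 importers were nearly silent. SLC39A5, known from gut and pancreas, SLC39A12, known from brain, and SLC39A2 did not exceed 0.65 TPM in any sample.

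Among the importers at the plasma membrane, SLC39A1 (ZIP1), long regarded as a main route of zinc uptake in prostate cells, was at 275 and 259 TPM for DU145, 145.07 and 146 for PC3, 66.9 and 70.9 for VCAP, 62.8 and 69.2 for DUCAP and 66.4 and 56.7 for LNCaP. All 3 lines of the trio lay together, PC3 above them and DU145 above PC3. The trio was lower (log2 difference −1.58, SE 0.08, limma adjusted p = 5.2e-07), and DU145 was above PC3 (log2 difference 0.87, SE 0.12, limma adjusted p = 0.00058). SLC39A1 held 35.7% of the importer TPM of DU145. SLC39A6 (ZIP6, LIV-1), known as an estrogen-responsive gene, had another order and was at 202 and 252 TPM for VCAP, 147 and 177 for DUCAP, 98.9 and 141 for DU145, 108 and 112 for LNCaP and 44.1 and 43.4 for PC3. VCAP and DUCAP were above all others, DU145 overlapped LNCaP and PC3 was lowest. It was higher in the trio (log2 difference 1.13, SE 0.12, limma adjusted p = 5.0e-05), and it was higher in DU145 than in PC3 (log2 difference 1.41, SE 0.19, limma adjusted p = 0.00046). It held 39.8% of the importer TPM of VCAP and 5.15% of those of PC3.

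SLC39A4 (ZIP4), the intestinal importer whose loss causes zinc deficiency, was at 127 and 117 TPM for PC3, 77.7 and 84.2 for LNCaP, 20.4 and 23.9 for DUCAP, 22.9 and 17.8 for VCAP and 16.9 and 19.8 for DU145. PC3 and LNCaP stood above the other 3 lines, which overlapped. DU145 was below PC3 (log2 difference −2.67, SE 0.16, limma adjusted p = 5.0e-06) and LNCaP exceeded DUCAP and VCAP (log2 difference 1.89, SE 0.14, limma adjusted p = 9.2e-06), so that the split of the study cut across this gene. Its call in the trio (log2 difference −0.51, SE 0.10, limma adjusted p = 0.0022) was lost after median-ratio scaling (−0.04) and its sign turned after quantile normalization (0.06). SLC39A3, another surface importer, ranged from 23.2 to 70.0 TPM, with the highest levels in LNCaP.

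SLC39A8 (ZIP8) and SLC39A14 (ZIP14) are sister importers that also carry manganese and iron. SLC39A8 was at 35.3 and 24.2 TPM for LNCaP, 17.0 and 28.1 for DU145, 7.70 and 8.30 for PC3, 1.22 and 2.14 for VCAP and 1.64 and 1.63 for DUCAP. LNCaP and DU145 overlapped at the top, and DUCAP and VCAP were far below. LNCaP was above DUCAP and VCAP (log2 difference 3.52, SE 0.24, limma adjusted p = 6.3e-06) and DU145 above PC3 (log2 difference 1.35, SE 0.28, limma adjusted p = 0.0046). SLC39A14 was at 70.2 and 71.4 TPM for DU145, 50.0 and 38.9 for PC3, 33.3 and 33.8 for LNCaP, 12.7 and 14.3 for VCAP and 8.82 and 12.3 for DUCAP. It was lower in the trio (log2 difference −1.67, SE 0.12, limma adjusted p = 3.8e-06) without overlap, and LNCaP was above DUCAP and VCAP (log2 difference 1.42, SE 0.16, limma adjusted p = 8.7e-05). DU145 was above PC3 (log2 difference 0.67, SE 0.18, limma adjusted p = 0.016), a call that was lost without PC3 repeat 2 (adjusted p = 0.12). SLC39A10, a close relative of SLC39A6 that forms complexes with it, ranged from 2.79 to 5.10 TPM in DUCAP and VCAP and from 10.3 to 16.1 in the other lines.

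Importers of internal membranes release zinc from organelles. SLC39A7 (ZIP7), which acts in the endoplasmic reticulum and the Golgi, was at 248 and 255 TPM for PC3, 157 and 179.7 for VCAP, 129.9 and 165 for DUCAP, 142 and 136 for LNCaP and 118 and 104 for DU145. PC3 was above all other lines, and the trio did not pass the test against DU145 and PC3 (log2 difference −0.15, SE 0.09, limma adjusted p = 0.19), while DU145 was below PC3 (log2 difference −1.18, SE 0.15, limma adjusted p = 0.00029). SLC39A9 (ZIP9), a Golgi and surface protein, was at 118 and 119 TPM for PC3, 57.6 and 45.4 for DU145, 44.8 and 42.7 for LNCaP, 33.4 and 36.1 for VCAP and 26.9 and 33.5 for DUCAP. The highest trio sample was just under the lowest DU145 sample, and PC3 was above both (log2 difference −1.10, SE 0.10, limma adjusted p = 1.8e-05 for the trio, log2 difference −1.20, SE 0.16, limma adjusted p = 0.00040 for DU145 against PC3).

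SLC39A13 (ZIP13), known for its part in connective tissue, was at 39.6 and 39.7 TPM for PC3, 20.8 and 18.8 for DU145, 12.8 and 12.3 for LNCaP, 3.77 and 2.68 for DUCAP and 3.99 and 2.32 for VCAP. SLC39A11 (ZIP11), the most distant family member, was at 18.7 and 13.8 TPM for DU145, 15.5 and 14.6 for PC3, 13.7 and 13.7 for LNCaP, 1.57 and 2.11 for VCAP and 1.92 and 1.63 for DUCAP. Both were lower in the trio without overlap, SLC39A13 (log2 difference −2.24, SE 0.14, limma adjusted p = 1.7e-06) and SLC39A11 (log2 difference −1.77, SE 0.12, limma adjusted p = 2.7e-06). For SLC39A11 the LNCaP repeats nearly touched DU145, and the low values were those of DUCAP and VCAP. LNCaP was above DUCAP and VCAP in SLC39A11 (log2 difference 2.39, SE 0.16, limma adjusted p = 5.3e-06) and in SLC39A13 (log2 difference 1.72, SE 0.19, limma adjusted p = 7.5e-05).

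**Figure D3:**
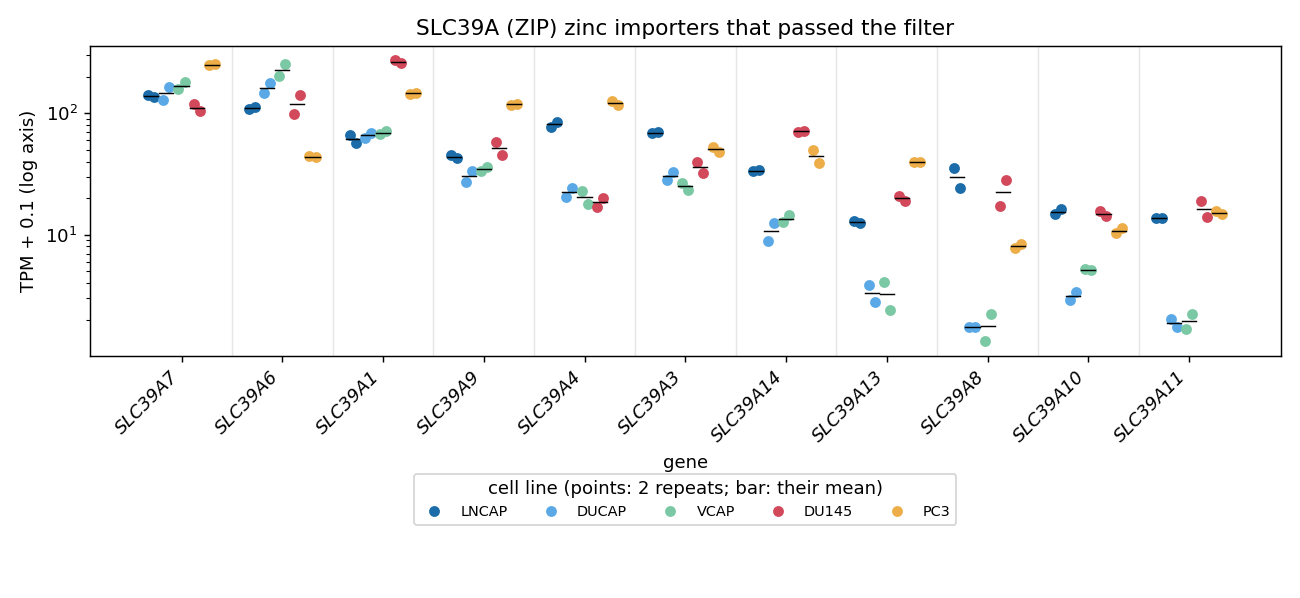
TPM of the 11 SLC39A importers that passed the filter (log axis, with 0.1 added), ordered by mean level, with 1 point per sample coloured by line and a bar at the mean of each line's 2 repeats. SLC39A1 is highest in DU145 and SLC39A6 lowest in PC3, while DUCAP and VCAP lie at the bottom for SLC39A14, SLC39A13, SLC39A8, SLC39A10 and SLC39A11.

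Exporter sums were 226 and 242 TPM for LNCaP, 129 and 127 for DU145, 104 and 123 for VCAP, 102 and 98.4 for PC3 and 56.4 and 70.2 for DUCAP. LNCaP was highest and DUCAP lowest, an exporter ratio of 3.70 that became 3.04 when the mitochondrial genes were left out of the total and 2.18 when scaled by median ratios. Within a sample the ratio of importer to exporter TPM is not changed by a single factor for the whole sample. PC3 had 8.43 and 8.55, DUCAP 7.70 and 7.45, DU145 5.80 and 5.88, VCAP 5.15 and 4.93, and LNCaP 2.73 and 2.48. No sample of one line fell within the range of another, and LNCaP was lowest.

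SLC30A4 (ZnT4), which loads zinc into vesicles of the endosomal and secretory system, set LNCaP apart. It lies on chromosome 15 (chr15:45479606-45522755, GRCh38.p14) and was at 85.2 and 96.8 TPM for LNCaP, 13.3 and 14.2 for VCAP, 1.93 and 3.16 for DUCAP, 2.30 and 2.01 for DU145 and 1.02 and 1.06 for PC3. The LNCaP repeats were above every other sample, VCAP was intermediate, and DUCAP overlapped DU145. LNCaP exceeded DUCAP and VCAP (log2 difference 3.68, SE 0.17, limma adjusted p = 7.7e-07), and DUCAP was below VCAP (log2 difference −2.08, SE 0.19, limma adjusted p = 0.00025). The trio was higher on average (log2 difference 2.73, SE 0.12, limma adjusted p = 3.0e-07). The sides overlapped. SLC30A4 made up 38.9% of the exporter TPM of LNCaP.

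SLC30A1 (ZnT1), the exporter at the plasma membrane and a known target of MTF1, was at 6.52 and 8.06 TPM for LNCaP, 7.79 and 6.73 for DU145, 7.16 and 4.86 for PC3, 3.11 and 3.3 for VCAP and 2.32 and 2.72 for DUCAP. DUCAP and VCAP were below all other samples. LNCaP exceeded them (log2 difference 1.10, SE 0.17, limma adjusted p = 0.00062). The trio was lower (log2 difference −0.61, SE 0.13, limma adjusted p = 0.0027), a call that was lost under the quantile (−0.06) and the median-ratio (−0.21) alternatives. DU145, the line with the highest metallothionein sum, overlapped LNCaP in SLC30A1. A link between SLC30A1 and that sum was not tested.

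SLC30A5, SLC30A6 and SLC30A7 supply zinc to the early secretory pathway, the first and second as a heterodimer. SLC30A5 was at 50.5 and 49.6 TPM for LNCaP, 40.5 and 40.5 for PC3, 28.9 and 35.4 for VCAP, 33.2 and 27.9 for DU145 and 17.8 and 22.5 for DUCAP. SLC30A6 was at 17.8 and 22.9 TPM for DU145, 20.5 and 19.5 for PC3, 12.9 and 13.6 for LNCaP, 8.61 and 9.65 for VCAP and 5.48 and 6.37 for DUCAP, lower in the trio without overlap (log2 difference −1.08, SE 0.11, limma adjusted p = 2.6e-05). SLC30A7 was at 8.44 and 7.17 TPM for PC3, 4.88 and 4.59 for LNCaP, 4.46 and 4.73 for DU145, 1.58 and 1.90 for DUCAP and 1.72 and 1.62 for VCAP, with DUCAP and VCAP below all other samples. It was lower in the trio (log2 difference −1.01, SE 0.10, limma adjusted p = 2.3e-05) and higher in LNCaP than in DUCAP and VCAP (log2 difference 1.09, SE 0.13, limma adjusted p = 0.00013). The partners SLC30A5 and SLC30A6 thus had different orders, since SLC30A5 was highest in LNCaP and did not pass the test between the trio and the other lines (log2 difference −0.14, SE 0.11, limma adjusted p = 0.27).

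SLC30A9 (ZnT9), a mitochondrial zinc exporter, was at 64.7 and 68.2 TPM for LNCaP, 59.7 and 61.4 for DU145, 47.1 and 58.0 for VCAP, 27.0 and 32.7 for DUCAP and 24.1 and 25.2 for PC3. PC3 and DUCAP were lowest, and neither overlapped the other lines. DU145 exceeded PC3 (log2 difference 1.26, SE 0.15, limma adjusted p = 0.00020). SLC30A3, the exporter of synaptic vesicles, exceeded 1 TPM only in DU145, at 3.82 and 1.5, while the other lines had 0.38 and 0.58 (LNCaP), 0.35 and 0.14 (VCAP), 0.06 and 0.06 (PC3) and 0.01 and 0.02 (DUCAP). The other exporters did not pass the filter. SLC30A10, which exports manganese, was at 0.87 and 0.71 TPM in LNCaP, and SLC30A2 reached at most 0.63 TPM. SLC30A8, the exporter of insulin granules, was listed at 0 in every sample.

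**Figure D4:**
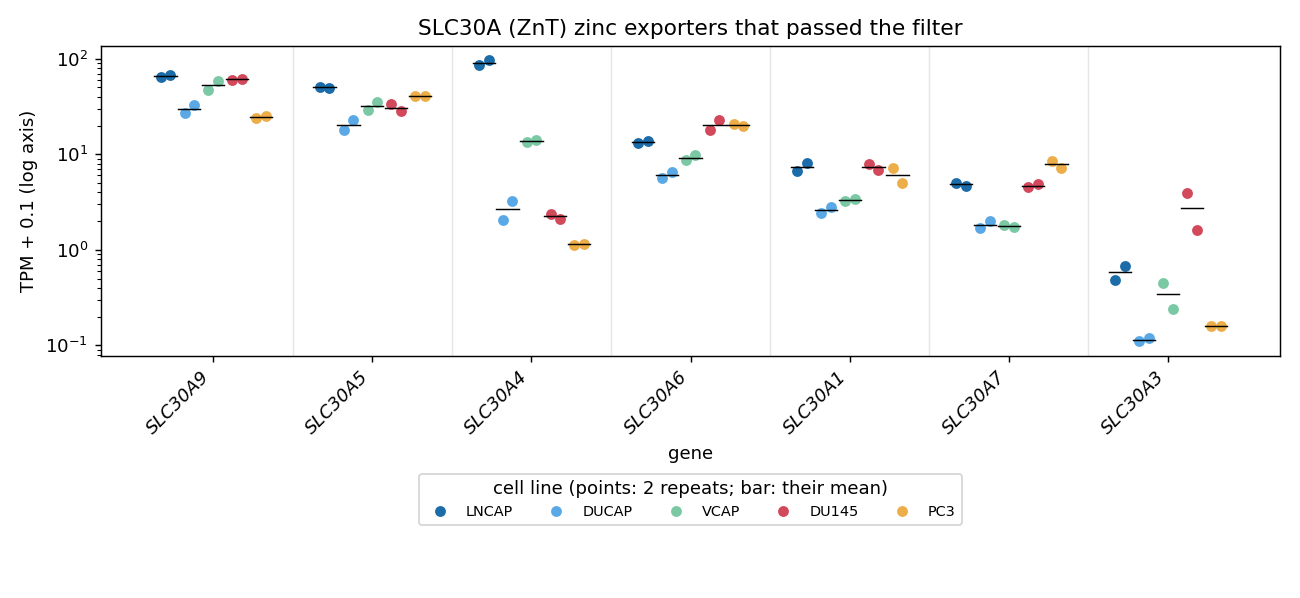
TPM of the 7 SLC30A exporters that passed the filter (log axis, with 0.1 added), ordered by mean level, with 1 point per sample coloured by line and a bar at the mean of each line's 2 repeats. SLC30A4 spans the widest range of the exporters above 1 TPM in every sample, from 1.02 TPM in PC3 to 96.8 TPM in LNCaP.

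Across the study's split, 22 of the 27 tested members were called, 17 lower and 5 higher in the trio, where 74.4% of all tested genes were called, 51.9% lower and 22.5% higher. The median log2 difference was −0.89 for the members and −0.40 for all tested genes. Of the importers, 8 of 11 were lower and 1 higher, with a median of −1.10. Of the exporters, 4 of 7 were lower and 2 higher, with a median of −0.61. Of the metallothioneins, 5 of 8 were lower and 2 higher, the higher ones being MT1G and the scarce MT3, with a median of −2.39 that includes MT1A, MT1G and MT1M, for which one side was listed at 0 and which passed the filter only through the other side. In 9 members the sides did not overlap, all of them lower in the trio, as were 19.8% of all tested genes, while 6.92% lay higher without overlap. MT1M is among the 9. MT1A, MT1M and SLC30A3, counted as lower, and MT1G, counted as higher, reached 1 TPM on 1 side only. They passed the filter only through that side, so their direction in these counts was fixed by the filter. The call for SLC30A9 (log2 difference 0.27, SE 0.10, limma adjusted p = 0.030) was lost without either LNCaP or either PC3 repeat, DUCAP repeat 2, VCAP repeat 2 or DU145 repeat 1 (adjusted p 0.051 to 0.086). That for MT3 (log2 difference 0.63, SE 0.20, limma adjusted p = 0.020) was lost without LNCaP repeat 2, DUCAP repeat 1, DU145 repeat 2 or PC3 repeat 1 (adjusted p 0.053 to 0.088).

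The scaling moved these counts. Median-ratio scaling and quantile normalization each gave 15 members lower and 8 higher, with an all-gene median of −0.01 and 0.08, and rescaling without the mitochondrial genes gave 17 and 5. Over all tested genes they gave, in the same order, 6534 lower and 6202 higher, 5932 and 6896 (both of 17520), and 7780 and 4965 (of 17505). The metallothioneins were at 5 lower and 2 higher under each of the 3. These counts include MT1A and MT1M as lower and MT1G as higher, whose direction was fixed by the filter under any scaling. The importers were at 7 lower and 3 higher under the first and second, and 8 and 1 under the third. Exporters were evenly split at 3 and 3 under the first and second, and at 4 and 2 under the third.

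**Figure D5:**
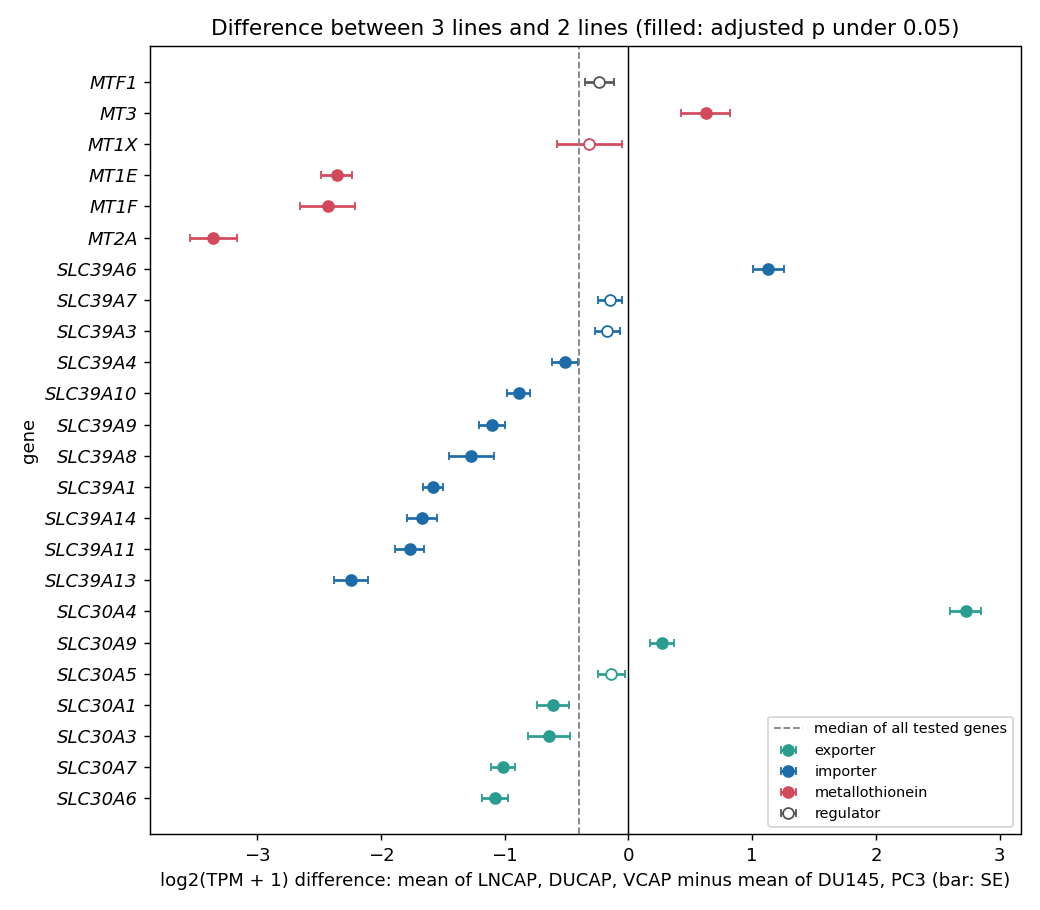
Difference between the mean of LNCaP, DUCAP and VCAP and the mean of DU145 and PC3 on the log2(TPM + 1) scale (horizontal axis, bars show the SE) for the tested members, coloured by class, with MT1A, MT1G and MT1M left out because one side was listed at 0. The dashed line marks the median of all tested genes, −0.40. MT2A lies farthest to the left and SLC30A4 farthest to the right.

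With the TPM as deposited, most transporter genes were higher in LNCaP than in DUCAP and VCAP. In that comparison, 20 of the 27 members were called, 18 higher and 2 lower, where 64.6% of all tested genes were called, 49.2% higher and 15.5% lower. The median was 0.96 for the members and 0.46 for all tested genes. The higher members were 8 importers, 6 exporters, MT1F, MT1G, MT1X and MTF1, and the lower were SLC39A6 (log2 difference −0.79, SE 0.17, limma adjusted p = 0.0031) and MT1E, listed at 0 in LNCaP. The call of MT1G was fixed by the filter, which it passed only through LNCaP. Quantile normalization gave 13 members higher and 5 lower, median-ratio scaling gave 12 and 5, and a total without the mitochondrial genes gave 16 and 4. Over all tested genes they gave, in the same order, 5272 higher and 5183 lower, 5344 and 5134 (both of 17520), and 7136 and 3643 (of 17505). Of the exporters, 4 were higher under the first and 3 under the second. SLC30A6 (log2 difference 0.77 as deposited, 0.13 and 0.16) and SLC30A9 (0.74 as deposited, 0.11 and 0.08) lost their calls under both, and SLC30A5 lost its call under the second (0.31, adjusted p = 0.071). SLC39A9 turned to −0.17 and −0.22 under the first and second of these, neither of which passed the test. Its call (log2 difference 0.43, SE 0.14, limma adjusted p = 0.024) was also lost without either LNCaP repeat, DUCAP repeat 1 or VCAP repeat 1 (adjusted p 0.055 to 0.13).

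DUCAP and VCAP lay below every other sample in 11 of the 27 tested members, a count made after the values were seen, where 29.1% of all tested genes did. The members were the importers SLC39A8, SLC39A9, SLC39A10, SLC39A11, SLC39A13 and SLC39A14, the exporters SLC30A1, SLC30A6 and SLC30A7, MT1F and MTF1. These lines also had the largest mitochondrial share. Without the mitochondrial genes the number was 9, and 21.0% of all tested genes. After median-ratio scaling it was 6, and 14.4% of all tested genes. SLC39A8, SLC39A10, SLC39A11, SLC39A13, SLC39A14 and SLC30A7 were in the group under all 3. SLC39A6 was above every other sample in these lines, also under all 3, where 6.56% of all tested genes were so with the TPM as deposited, 9.81% without the mitochondrial genes and 15.7% after median-ratio scaling.

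Between DUCAP and VCAP, 7 of the 27 members were called, all lower in DUCAP, where 18.3% of all tested genes were called and 14.0% of all tested genes were lower and 4.24% higher. They were SLC30A4, SLC30A5, SLC30A9, SLC39A10, MT1E, MT1F and MT2A. The difference in SLC30A9 (log2 difference −0.79, SE 0.15, limma adjusted p = 0.0083) was lost without DUCAP repeat 1 (adjusted p = 0.065). SLC30A5 (log2 difference −0.65, SE 0.16, limma adjusted p = 0.029) was lost without either LNCaP or either PC3 repeat, DUCAP repeat 1 or VCAP repeat 2 (adjusted p 0.058 to 0.18), and SLC39A10 (log2 difference −0.60, SE 0.15, limma adjusted p = 0.026) without any one of the DUCAP or VCAP repeats (adjusted p 0.063 to 0.15). The number of members called was 3 without DUCAP repeat 1 and 4 when a 2-fold difference was also required.

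DU145 and PC3 differed in 17 of the 27 members, 11 higher and 6 lower in DU145, where 49.3% of all tested genes were called, 23.8% higher and 25.5% lower. Importers went both ways, 5 higher (SLC39A1, SLC39A6, SLC39A8, SLC39A10 and SLC39A14) and 5 lower (SLC39A3, SLC39A4, SLC39A7, SLC39A9 and SLC39A13). The exporters SLC30A4 and SLC30A9 were higher and SLC30A7 lower. Of the metallothioneins, MT1E and MT2A were higher. The remaining calls among the 11, MT1A and SLC30A3, were fixed by the filter, which these genes passed only through DU145. Calls that were lost when 1 sample was left out were those of SLC30A4 (DU145 repeat 1 or either PC3 repeat, adjusted p 0.078 to 0.10), SLC39A3 (DU145 repeat 2 or either PC3 repeat, adjusted p 0.063 to 0.14) and SLC39A10 (DU145 repeat 1 or either LNCaP or PC3 repeat, adjusted p 0.056 to 0.15), beside MT2A and SLC39A14 above. With a 2-fold difference also required, 9 members were left.

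For comparison, 20 other genes of metal handling, which move or store copper, iron, magnesium or zinc, were counted. Of the 19 tested, 3 were higher and 10 lower in the trio, where 22.5% of all tested genes were higher and 51.9% lower. The median log2 difference of the 19 was −0.51, and 9 were higher and 8 lower under either quantile or median-ratio scaling. HMOX1, which degrades heme and frees its iron (log2 difference −3.08, SE 0.23, limma adjusted p = 5.4e-06), and FTH1, the ferritin heavy chain (log2 difference −2.10, SE 0.13, limma adjusted p = 1.7e-06), were the farthest below. ATP7A, a copper pump (log2 difference 0.66, SE 0.12, limma adjusted p = 0.00093), and SLC40A1, the iron exporter ferroportin (log2 difference 0.65, SE 0.12, limma adjusted p = 0.0012), were the farthest above. The sides overlapped in HMOX1, ATP7A and SLC40A1 and not in FTH1. Mean TPM for LNCaP, DUCAP, VCAP, DU145 and PC3 in this order were 7.72, 0.065, 0.15, 26.9 and 12.8 for HMOX1. They were 6.6, 2.2, 3.9, 1.4 and 3.1 for ATP7A, and 0.89, 3.8, 3.1, 0.23 and 2.7 for SLC40A1. LNCaP exceeded DUCAP and VCAP in 12 of the 19 and was lower in 2, where 49.2% of all tested genes were higher and 15.5% lower. DU145 and PC3 differed in 12, evenly in both directions, and DUCAP and VCAP in 4, where 49.3% and 18.3% of all tested genes differed.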

How the data were processed

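Bulk RNA-seq of 5 untreated lines with 2 biological repeats each was used, grouped by the deposited labels. Per the submitters' processing notes and methods, the authors checked reads with FastQC 0.11.9, trimmed them with Trim Galore 0.6.5, aligned them with STAR 2.7.2b to GRCh38 and quantified genes with RSEM 1.3.3. The deposited values are TPM, computed by the authors without pooling repeats. No scaling between samples is stated, and intervals and floors were not computed because TPM keep no depth.

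The members and gene lists were chosen with earlier results of these data known. TPM were analysed as log2(TPM + 1) with limma 3.58.1 in R 4.3.3 (1 coefficient per line, all 10 samples, trend in the prior variance, Benjamini-Hochberg adjustment at 0.05) for genes at 1 TPM or more in 2 or more samples. This step was tested on simulated data. The 4 contrasts between groups of lines were orthogonal. Values per sample were given for MTF1 and, in each class, for tested members among the 5 highest by mean TPM or the 5 with the widest spread between line means, and from the list of other metal genes for the 2 largest changes each way. Class sums were described without a test. Alternatives were a pseudocount of 0.1, no filter or a minimum of 5 TPM, quantile normalization, median-ratio scaling, rescaling without mitochondrial genes, no trend, a replicate block, a 2-fold requirement and each sample left out.

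Coordinates and promoter windows came from the RefSeq tables of GRCh38.p14. Windows of 100 bases were compared within GENCODE transcripts of GRCh37, not the authors' annotation, and no coordinates of that build are given. Repeats came from cultures described as biological repeats. Python 3.11.15, numpy 2.4.6, pandas 2.3.3 and matplotlib 3.10.9 were used.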

Additional observations from a re-analysis of the deposited data

How the results depend on the processing

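Of the 66 differences called for single members, 64 kept their direction under every alternative, and 47 also kept their call under every alternative other than the 2-fold requirement. The reversed ones were SLC39A4 in the trio, at 0.061 after quantile normalization, and SLC39A9 in LNCaP against DUCAP and VCAP, at −0.17 under the quantile and −0.22 under the median-ratio scaling. The 66 include calls whose direction was fixed by the filter and which could hardly turn. They were MT1A, MT1M, SLC30A3 and MT1G for the trio, MT1G for LNCaP, and MT1A and SLC30A3 between DU145 and PC3. The 2-fold requirement left 4 members called between DUCAP and VCAP and 9 between DU145 and PC3. Leaving out each sample gave 24 to 27 members called across the lines, 20 to 23 for the trio, 17 to 21 for LNCaP, 3 to 9 for DUCAP against VCAP and 12 to 18 for DU145 against PC3. A sample left in an arm of 1 was assumed to vary like the others.

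The ratio of the metallothionein sums was 20.4 to 32.1 with a sample left out and 14.6 after median-ratio scaling. The importer ratio was 1.62 to 1.96, 1.37 after rescaling without mitochondrial genes and 0.994 after median-ratio scaling, and the exporter ratio was 3.33 to 4.15, 3.04 and 2.18. The last 2 scalings divide by factors that differ between lines.

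Same-numbered repeats did not deviate together (mean r 0.00922 over 10 pairs of lines, −0.191 to 0.249, across genes), and no label ties them. With the replicate block, 27, 22, 20, 7 and 15 members were called across the lines, for the trio, for LNCaP, between DUCAP and VCAP, and between DU145 and PC3. The losses were MT2A and SLC39A10 in the last, with limma adjusted p of 0.055 and 0.053. The depth of the samples is unknown, and 2 repeats per line limit the precision.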
